A study of Mus musculus with 6 samples.

Results

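Accessible chromatin was examined at 8 genes of cholesterol synthesis in mouse liver after overexpression of the kinase Dyrk1b. The genes were Hmgcs1, Mvd, Fdps, Fdft1, Sqle, Lss and Msmo1, which encode enzymes of the pathway, and Insig1, which encodes a regulator of it. Their peaks were taken by gene symbol from the deposited annotation, which gave 11 of the 22412 peaks in the table. Of these, 9 lay at promoters, within 3 kb of the annotated start, and 2 lay in introns beyond that distance, 1 each in Fdft1 and Lss. The working name of the set also covers cholesterol uptake, but none of the 8 genes encodes an uptake receptor, so the genes are described here as cholesterol synthesis genes.

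The assay was ATAC-seq of liver, which reads out open chromatin from the places where a transposase can insert. The 3 overexpression libraries are labelled Ad-Dyrk1b with the genotype Dyrk1b overexpression, and the 3 control libraries are labelled Ad-EGFP with the genotype control. The prefix Ad- usually stands for an adenoviral vector, so the controls also carry a vector, one for a green fluorescent protein. The sources used here do not give strain, age, sex, vector promoter, viral dose or time after injection. No label says that libraries of a group came from separate animals, and the p-values therefore cover the spread among libraries, which may be technical.

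Reads in the 22412 peaks numbered 768418 to 1267934 in Dyrk1b libraries and 762633 to 855787 in control libraries, which is 1.67% to 2.62% and 1.89% to 2.22% of the library totals behind the deposited RPKM values. The overexpressed gene followed the labels. Its peak in exon 9 of 11 held 27, 30 and 53 reads in Dyrk1b libraries 1, 2 and 3 and 10, 1 and 3 reads in control libraries, a log2 change of 2.64 ± 0.50 (SE) with an adjusted p of 0.00981 in edgeR's quasi-likelihood test. A peak in exon 11 held 33, 28 and 39 reads with Dyrk1b and 9 reads in each control. Its log2 change was 1.615 ± 0.42 (SE), with an adjusted p of 0.107 in the same test, so it did not pass 0.05. Whether these exonic reads came from the vector or the genome was not tested.

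Cells build cholesterol from acetyl-CoA through mevalonate, isoprenoid diphosphates, squalene and lanosterol. The genes of this pathway are known targets of the SREBP transcription factors, which the escort protein SCAP carries from the endoplasmic reticulum to the Golgi for activation when sterols are low. Insig1 is an anchor protein that holds SCAP back when sterols are high. The liver is a main site of cholesterol synthesis, and SREBP binds promoters of these genes together with the cofactors NF-Y, which recognises CCAAT boxes, and Sp1, which recognises GC boxes.

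Promoter sequences from RefSeq (build GRCm38.p6, 250 bases before the start) were found for 5 of the 8 genes, Hmgcs1, Mvd, Lss, Msmo1 and Insig1. Those of Hmgcs1, Mvd and Lss are shown because the peaks of these 3 genes reach into the bases before the start. Capitals mark matches, on either strand, to the SREBP element TCACNCCAC, the E-box CACGTG, the CCAAT box and the GC box GGGCGG. No marked matches overlap in these 3 sequences. They are Hmgcs1 at chr13:119690101-119690350 on the plus strand, Mvd at chr8:122443423-122443672 on the minus strand and Lss at chr10:76531355-76531604 on the plus strand.
Hmgcs1: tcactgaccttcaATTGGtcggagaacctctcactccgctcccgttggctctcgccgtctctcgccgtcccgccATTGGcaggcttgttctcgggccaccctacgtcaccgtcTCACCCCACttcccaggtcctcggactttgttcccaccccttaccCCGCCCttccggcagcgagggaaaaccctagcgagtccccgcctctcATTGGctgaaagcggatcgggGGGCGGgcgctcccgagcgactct
Mvd: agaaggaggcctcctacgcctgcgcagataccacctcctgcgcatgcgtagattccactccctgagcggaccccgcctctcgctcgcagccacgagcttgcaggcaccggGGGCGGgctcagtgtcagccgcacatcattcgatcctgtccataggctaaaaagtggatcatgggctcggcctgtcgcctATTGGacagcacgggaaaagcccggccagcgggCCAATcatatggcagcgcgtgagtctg
Lss: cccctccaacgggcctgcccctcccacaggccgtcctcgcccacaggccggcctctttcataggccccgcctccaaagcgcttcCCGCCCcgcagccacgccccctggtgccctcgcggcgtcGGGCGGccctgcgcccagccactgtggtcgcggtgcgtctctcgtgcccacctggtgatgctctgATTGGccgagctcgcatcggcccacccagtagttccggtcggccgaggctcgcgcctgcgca

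All 5 sequences held at least 1 CCAAT box and at least 1 GC box, motifs found in 33.8% and 32.7% of 32851 RefSeq promoter windows of the same length. The SREBP element was found in Hmgcs1 alone, with its first base 137 bases before the start, against 1.05% of all windows. The E-box was found in Insig1 alone, 101 bases before the start, against 6.02% of windows. Hmgcs1 and Msmo1 each held 3 CCAAT boxes, Mvd had 2, and Lss and Insig1 had 1 each. These matches describe letters only, and no match says only that the letters are absent from the window. The deposited gene positions belong to another build than these sequences, so peaks and motifs could not be aligned base for base.

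The 9 promoter peaks fell into 3 positions relative to the annotated start. The peaks of Mvd (the nearer one), Fdps, Fdft1, Sqle, Lss and Hmgcs1 spanned the start, with centres between -274 and 204 bases from it, upstream being negative. Those of Msmo1 and Insig1 lay wholly downstream, in intron 1, with centres at 339 and 785 bases. The outer Mvd peak was centred at -981 bases and was separated from the nearer one by 42 bases, so the 2 Mvd peaks report on neighbouring parts of 1 promoter.

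**Figure D1:**
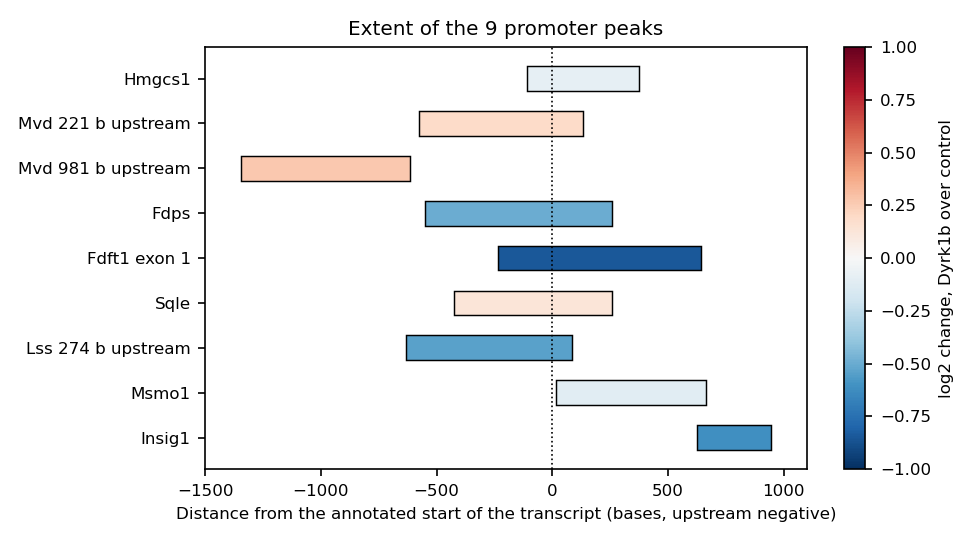
Extent of the 9 promoter peaks as distance in bases from the annotated transcript start, upstream negative, with colour giving the log2 change of Dyrk1b overexpression over control. The 6 peaks that span the start include both the most negative change, at Fdft1 exon 1 (-0.85), and positive values at Mvd and Sqle, while the Insig1 peak begins 627 bases downstream of the start.

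These promoters were of modest accessibility per length. On the deposited RPKM scale, reads scaled to peak length and library total, the mean over 6 libraries was highest at Insig1 (1.76 ± 0.58 RPKM, SD, n = 6) and Sqle (1.715 ± 0.69). It was lowest at the intron 3 peak of Fdft1 (1.40 ± 0.66). All 11 peaks lay below the median of 1.77 RPKM over the promoters of 7584 genes, between the 16.4th and the 48.6th percentile. That reference takes the promoter peak with the most reads per gene, whereas the 11 include 2 intron peaks. The lowest promoter peak was that of Fdps, at the 19.3rd percentile. Neighbours in this order differed by at most 0.119 RPKM, less than the smallest SD of any of the peaks (0.29), so the order is not resolved.

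Dyrk1b overexpression left 0 of the 11 peaks past the threshold of an adjusted p of 0.05 in the edgeR quasi-likelihood fit of all 22051 peaks tested, where 0.0317% of all peaks passed. All 11 passed the filter on low counts. The log2 change of Dyrk1b overexpression over control was negative at 8 peaks and positive at 3, with a median of -0.28, while the median over all tested peaks was 0.005. With 1 promoter peak per gene, 6 of 8 genes were negative with a median of -0.305, against 57.4% negative and a median of -0.07 for 7584 genes. With whole-library totals 4 of 8 were negative with a median of -0.13, against 0.10 for all promoters, and 4 of 8 were negative without Dyrk1b library 1.

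At an unadjusted p under 0.05, 2 of the 11 peaks were lower, the exon 1 peak of Fdft1 and the promoter peak of Lss, against 7.72% of all peaks tested, and 0 were higher, against 6.44%. Among promoters alone the lower share was 8.81% of 7584 genes, and 0.0527% of them passed after adjustment. DESeq2 also gave 0 peaks an adjusted p under 0.05, 1 peak an unadjusted one (Fdft1 exon 1), and no adjusted p for 7 of the 11. The Dyrk1b and control libraries did not overlap in depth-normalised counts (CPM) at 3 peaks, all lower with Dyrk1b, at Fdft1 exon 1, Lss intron 5 and Insig1. Over all peaks such separation was seen in 9.97% in the lower direction, and in 9.53% in the higher direction, where no peak of these genes stood. On the deposited RPKM values, which are scaled to the whole library and not to reads in peaks, the groups overlapped at all 11 peaks, while 2.99% of all peaks stood apart in the lower direction.

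**Figure D2:**
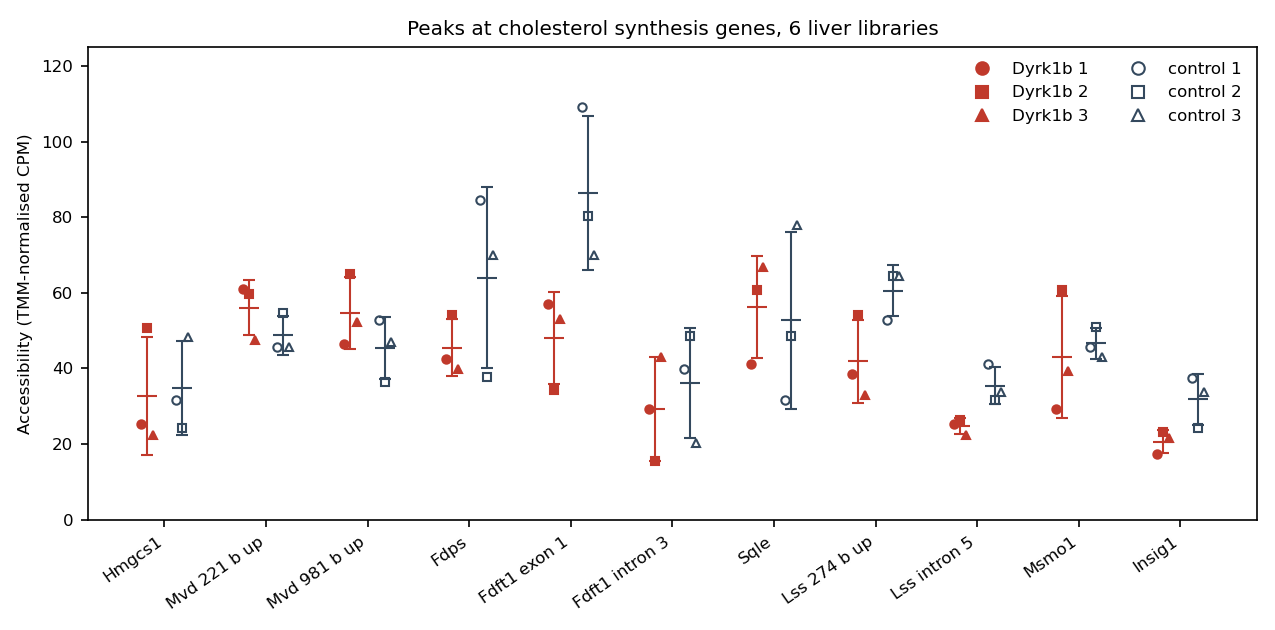
TMM-normalised CPM of the 11 peaks in each library, with Dyrk1b libraries filled and left of open control libraries, and bars for the mean ± SD of 3 libraries. The groups stand apart at Fdft1 exon 1 (34.2 to 57.1 against 69.9 to 109 CPM), Lss intron 5 (22.3 to 26.5 against 31.6 to 41.0 CPM) and Insig1 (17.3 to 23.2 against 24.3 to 37.5 CPM), and overlap at the other 8 peaks.

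Before squalene lie Hmgcs1, Mvd and Fdps, whose peaks differed in sign. Hmgcs1 encodes the cytosolic HMG-CoA synthase, which makes the precursor of mevalonate. Its peak at the start and in intron 1 of 2 (chromosome 13, 120151808 to 120152292) held 25.2, 50.7 and 22.3 CPM in Dyrk1b libraries 1, 2 and 3 and 31.7, 24.3 and 48.4 CPM in control libraries. Each group had 1 library well above its other two, and the ranges nearly coincided. This gave a log2 change of -0.09 ± 0.34 (SE) with a 95% interval of -0.77 to 0.58, and its sign turned under 1 scaling and without any of 3 libraries. The peak runs from -107 to 377 bases around its annotated start, and the SREBP element shown above begins 137 bases before the RefSeq start. These starts come from different annotations and builds, so whether the element lies inside the peak cannot be told.

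Mvd encodes mevalonate diphosphate decarboxylase, which makes isopentenyl diphosphate, and it was the only gene of the 8 whose peaks had positive values under every alternative. The nearer peak (chromosome 8, 123170029 to 123170735) held 61.05, 59.5 and 47.6 CPM in Dyrk1b libraries 1, 2 and 3 and 45.7, 54.7 and 45.7 CPM in control libraries. The outer peak (123170777 to 123171508) held 46.45, 65.1 and 52.2 CPM with Dyrk1b and 52.8, 36.4 and 47.05 CPM in controls. The highest value was in a Dyrk1b library at both peaks, and the groups overlapped at both. The log2 changes were 0.19 ± 0.26 and 0.27 ± 0.27, with adjusted p of 0.761 and 0.660 in edgeR's quasi-likelihood test. Their intervals were -0.33 to 0.71 and -0.27 to 0.80. The difference between Mvd and the other genes was not tested.

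Fdps encodes farnesyl diphosphate synthase, which builds the substrate of squalene synthase. Its promoter peak (chromosome 3, 89009009 to 89009817) held 42.5, 54.0 and 39.9 CPM in Dyrk1b libraries 1, 2 and 3 and 84.4, 37.7 and 69.9 CPM in control libraries. Controls 1 and 3 were high, and control 2 was below all Dyrk1b libraries. Fdps had a log2 change of -0.50 ± 0.27 with an interval of -1.03 to 0.04, an unadjusted p of 0.0676 and an adjusted p of 0.388 in edgeR's quasi-likelihood test. Without control 1 it was -0.24, and without control 2 it was -0.77.

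The lowest p of the 11 peaks was that of Fdft1, the gene for squalene synthase, which joins farnesyl diphosphate units in the first step committed to sterols. Its peak in exon 1 of 7 (chromosome 14, 63401731 to 63402610) held 57.1, 34.2 and 53.0 CPM in Dyrk1b libraries 1, 2 and 3, against 109, 80.2 and 69.9 CPM in control libraries 1, 2 and 3. Every Dyrk1b library was below every control library, and the highest value was that of control 1. Means were 48.1 ± 12.2 CPM with Dyrk1b and 86.4 ± 20.3 CPM in controls (SD, n = 3 each). The log2 change was -0.85 ± 0.25 with an interval of -1.34 to -0.36, an unadjusted p of 0.000994 and an adjusted p of 0.140 in edgeR's quasi-likelihood test.

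The Fdft1 difference did not pass over all peaks in any of the alternatives, whose adjusted p ran from 0.105 to 0.572. Its log2 change lay between -0.975 and -0.64 with each library left out in turn, the weakest being without control 1. The authors' deposited table gives the peak a log2 ratio of mean RPKM of -0.72 and an FDR of 0.466. The lowest FDR the authors give for any peak is 0.0652.

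A second Fdft1 peak, in intron 3 of 9 of a longer transcript (chromosome 14, 63404555 to 63405052), had values of wide spread. It lies 12224 bases inside the longer transcript, and is not counted as a promoter peak for that reason, although it is 2429 bases upstream of the start used for the exon 1 peak. Dyrk1b libraries 1, 2 and 3 held 29.2, 15.4 and 43.0 CPM, and control libraries 39.9, 48.6 and 20.2 CPM. The groups overlapped fully, with low values in Dyrk1b library 2 and control library 3. The log2 change was -0.28 ± 0.34, with an interval of -0.97 to 0.40, and the difference between the 2 peaks was not tested. It turned to 0.02 without Dyrk1b library 2.

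After squalene the pathway runs through Sqle, Lss and Msmo1. Sqle, squalene epoxidase, is a rate-limiting enzyme of the sterol branch. Its promoter peak (chromosome 15, 59186506 to 59187188) held 41.1, 60.6 and 66.8 CPM in Dyrk1b libraries 1, 2 and 3 and 31.7, 48.6 and 78.0 CPM in control libraries. The spread within each group was wider than the distance between the group means of 56.2 ± 13.4 CPM with Dyrk1b and 52.7 ± 23.4 CPM in controls (SD, n = 3 each). Sqle had a log2 change of 0.13 ± 0.27 with an interval of -0.42 to 0.67, and was negative without control 1 or without Dyrk1b library 3.

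Lss, lanosterol synthase, closes the sterol rings and had negative values at both of its peaks. The promoter peak (chromosome 10, 76366790 to 76367507) held 38.5, 54.0 and 33.0 CPM in Dyrk1b libraries 1, 2 and 3 and 52.8, 64.4 and 64.5 CPM in control libraries. Only Dyrk1b library 2 reached into the range of the controls. At this peak the log2 change was -0.54 ± 0.27 with an interval of -1.08 to -0.01, an unadjusted p of 0.0462 and an adjusted p of 0.347 in edgeR's quasi-likelihood test.

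The second Lss peak, in intron 5 of 21 and 6157 bases from the start (chromosome 10, 76373395 to 76373801), held 25.2, 26.5 and 22.3 CPM in Dyrk1b libraries 1, 2 and 3. Control libraries 1, 2 and 3 held 41.0, 31.6 and 33.6 CPM there. The groups did not overlap, and the Dyrk1b libraries lay close together. With 19 to 29 reads per Dyrk1b library and 25 to 35 per control library the log2 change of -0.53 ± 0.34 had an interval of -1.21 to 0.15 and an adjusted p of 0.469 in edgeR's quasi-likelihood test.

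Msmo1 encodes a methylsterol monooxygenase, which removes methyl groups from lanosterol-derived sterols. Its peak in intron 1 of 5 (chromosome 8, 65186163 to 65186811) held 29.2, 60.6 and 39.2 CPM in Dyrk1b libraries 1, 2 and 3 and 45.7, 51.0 and 43.0 CPM in control libraries. Dyrk1b library 2 was above all controls and the other two were below them. Msmo1 had a log2 change of -0.11 ± 0.285, with an interval of -0.68 to 0.46.

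Insig1, the regulator of the set, had every Dyrk1b library below every control library on the CPM scale. Its peak in intron 1 of 4 (chromosome 5, 28276988 to 28277305) held 17.3, 23.2 and 21.5 CPM in Dyrk1b libraries 1, 2 and 3 and 37.5, 24.3 and 33.6 CPM in control libraries. Control 2 lay just above the highest Dyrk1b library. Insig1 had a log2 change of -0.61 ± 0.37, with an interval of -1.35 to 0.125 and an adjusted p of 0.443 in edgeR's quasi-likelihood test. This was the shortest peak of the set, 317 bases, with 13 to 28 reads per Dyrk1b library and 20 to 32 per control library.

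**Figure D3:**
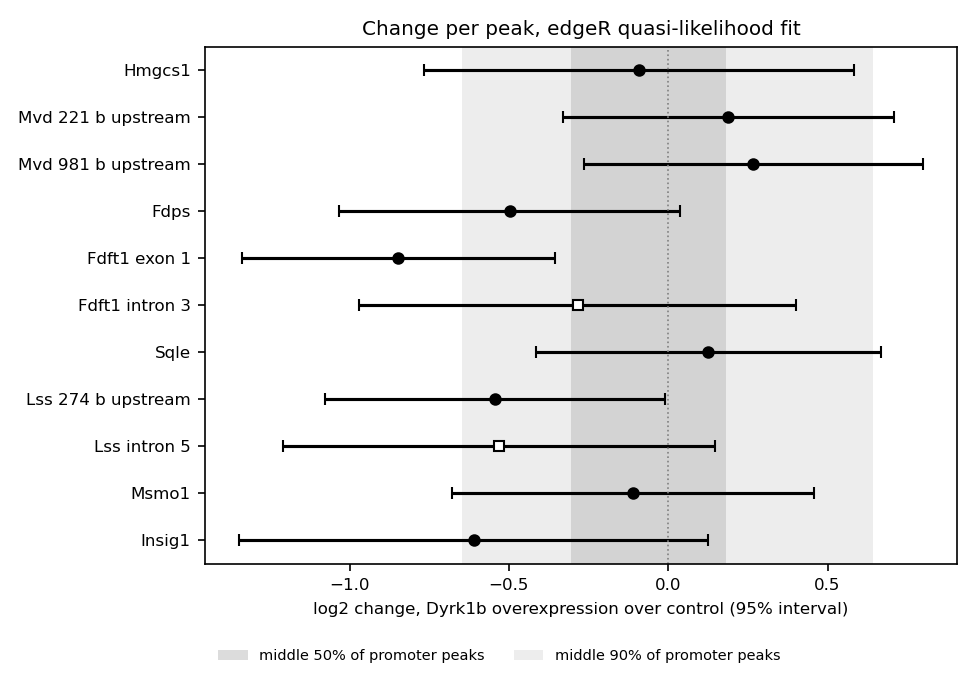
Log2 change of each peak, Dyrk1b overexpression over control, with its 95% interval from the edgeR fit. Filled points are promoter peaks and open squares are the 2 intron peaks beyond 3 kb from the start of their annotated transcript. Shaded bands run from the lower to the upper quartile (-0.31 to 0.18) and from the 5th to the 95th percentile (-0.65 to 0.64) of the log2 changes at the promoters of 7584 genes. The intervals of Fdft1 exon 1 and the Lss promoter peak lie below 0, and those of the other 9 peaks include it.

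At these 11 peaks 13 to 93 reads were held per library. Counting alone, at the mean reads of the 3 libraries of a group, gives a coefficient of variation of 11.9% to 22.0%. The observed coefficient of variation between the 3 libraries of a group had a median of 22.4% over the 22 peak and group combinations and exceeded the counting value in 15 of them. It was highest at Hmgcs1 with Dyrk1b (47.8%) and lowest at Msmo1 in controls (8.73%).

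Profiles over the libraries varied among the genes. Among the 28 pairs of promoter peaks, Pearson's r of log2 CPM over the 6 libraries, which include the 2 groups, ran from -0.775 (Mvd and Insig1) to 0.858 (Fdps and Insig1), with a median of 0.204 and 16 positive values. These are descriptions of 6 points each. The mean centred profile of the 8 promoters was -0.28, 0.08 and -0.23 in Dyrk1b libraries 1, 2 and 3 and 0.15, -0.001 and 0.275 in control libraries, so Dyrk1b library 2 lay within the range of the controls.

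Among 7396 other promoters, those of Ago2 (r = 0.994), Ncl (0.984), H2az2 (0.983), Fbrs (0.982) and Cox4i1 (0.981) were most like this mean profile over the same 6 libraries. Ago2 is an Argonaute protein, Ncl is nucleolin, H2az2 is a histone variant gene and Cox4i1 encodes a subunit of cytochrome c oxidase. Ago2 held 30.5, 57.3 and 33.8 CPM in Dyrk1b libraries and 61.0, 47.4 and 68.6 CPM in control libraries. With 7396 promoters compared over 6 libraries, values of r this high are a description only.

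**Figure D4:**
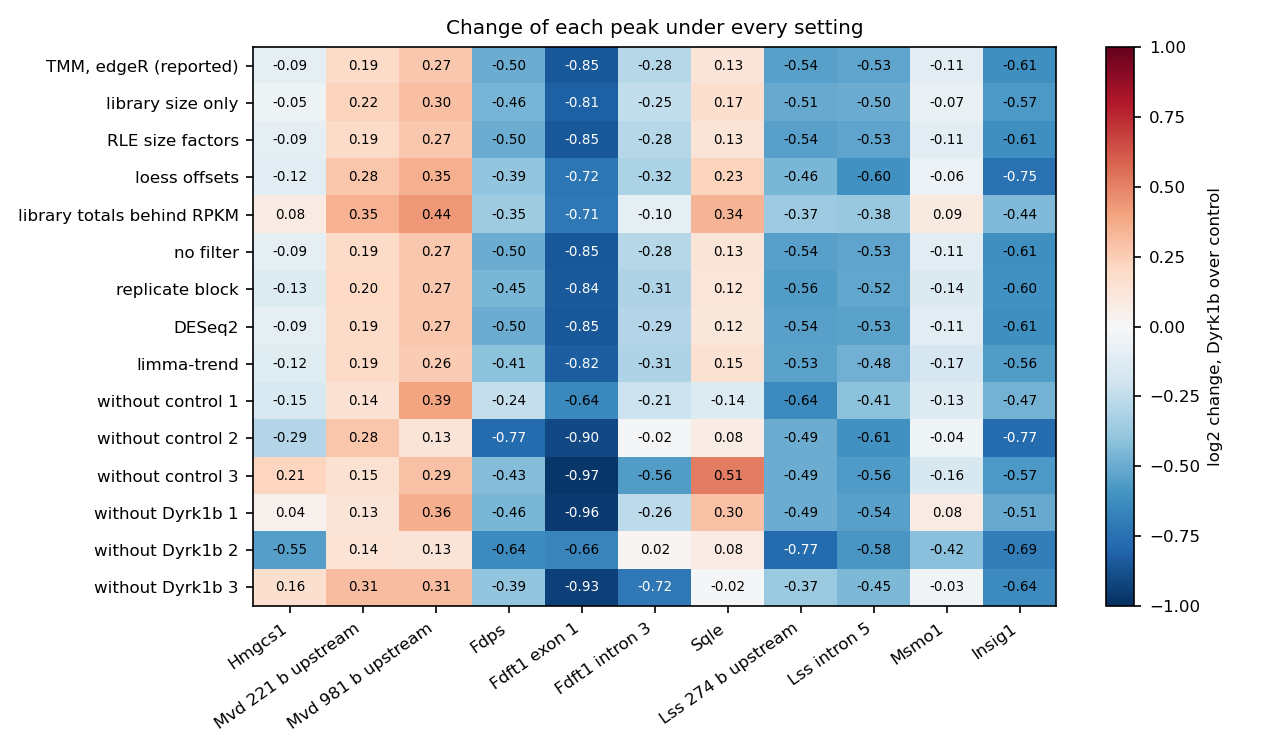
Log2 change, Dyrk1b overexpression over control, of each peak (columns) under the reported fit and each alternative (rows), on a colour scale from -1 to 1. Fdft1 exon 1, Fdps, both Lss peaks and Insig1 keep negative values and both Mvd peaks keep positive values in every row, while Hmgcs1, Fdft1 intron 3, Sqle and Msmo1 change sign in at least 1 row.

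Of 40 further genes of cholesterol synthesis, uptake, SREBP control, storage and efflux, 26 had a peak and 18 a promoter peak. Of these 18 promoters, 0 passed over all peaks. The log2 change was negative at 12, against 57.4% of all 7584 promoters, and its median was -0.11, against -0.07. At an unadjusted p under 0.05, 3 of the 18 were lower, against 8.81% of all promoters, and 0 were higher, against 4.39%. The groups stood apart at 6 of 18, 5 lower and 1 higher, against 12.0% of all 7584 promoters in the lower and 6.28% in the higher direction. Over all 54 peaks of the listed genes the 2 directions were closer. There 5 were lower and 3 higher at an unadjusted p under 0.05 in edgeR's quasi-likelihood test, against 7.72% and 6.44% of all tested peaks. The groups stood apart at 7 lower and 6 higher of these 54, against 9.97% and 9.53%. After loess normalisation the median of the 18 was 0.055, with all promoters at 0.01. After scaling to whole-library totals it was 0.06, with all promoters at 0.10, so the sign of the median turned for both sets.

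Among the controllers of the pathway, Srebf1 had the lowest p. It encodes an SREBP best known for fatty acid synthesis, and its peak at the start (chromosome 11, 60111122 to 60111678) held 37.2, 41.9 and 35.3 CPM in Dyrk1b libraries 1, 2 and 3 and 98.5, 55.9 and 68.6 CPM in control libraries. Its groups stood apart on the RPKM scale too. Its log2 change was -0.97 ± 0.26, with an adjusted p of 0.112 in edgeR's quasi-likelihood test. A Srebf1 peak in intron 1, at 9997 bases from the start, stood apart in CPM but overlapped in RPKM, at 38.5, 54.0 and 49.1 CPM with Dyrk1b and 68.0, 69.2 and 80.7 CPM in controls. The other 2 Srebf1 peaks had log2 changes of -0.25 and -0.215, with overlapping groups. The first, at 11059 bases, was -0.08 with whole-library totals. The second (60113687 to 60113902) was 0.02 without Dyrk1b library 1. Its position of -387 bases is counted from another annotated start, upstream of the start used for the other Srebf1 peaks.

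Srebf2, the SREBP that mainly drives cholesterol genes, had no promoter peak in the table. Its 2 peaks in intron 10 of 18 had log2 changes of -0.34 ± 0.22 at 37467 bases and -0.53 ± 0.26 at 36659 bases, and the groups overlapped at both. The first was -0.12 without control 1, and the second ran from -0.96 without Dyrk1b library 3 to -0.26 without Dyrk1b library 1. Scap stood at 0.06 ± 0.26 at its start, 0.19 ± 0.42 at 10642 bases and 0.63 ± 0.31 at 17554 bases. Insig2, a relative of Insig1 with the same anchoring role, had -0.13 ± 0.22 at its start, with 78.3, 90.4 and 85.2 CPM in Dyrk1b libraries and 86.8, 105.7 and 86.0 CPM in control libraries. None of these peaks had an adjusted p under 0.346 in edgeR's quasi-likelihood test.

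Next in order of p among the other promoters was Ggps1, which encodes geranylgeranyl diphosphate synthase of a side branch. It held 83.6, 76.1 and 69.9 CPM in Dyrk1b libraries and 102, 120.3 and 104.9 CPM in control libraries (log2 change -0.52 ± 0.22, adjusted p = 0.276 in edgeR's quasi-likelihood test). Lrp1, a lipoprotein receptor, had -0.29 ± 0.20, Mbtps1, the protease that makes the first cut in SREBPs, 0.32 ± 0.28, and Acat2, a cytosolic acetoacetyl-CoA thiolase, -0.25 ± 0.23. In CPM the Dyrk1b libraries lay below all controls at Ggps1, Lrp1 and Acat2, and the groups overlapped at Mbtps1. Such separation was seen at 12.0% of all 7584 promoters, and naming genes by low p favours it. On the RPKM scale Ggps1 alone of these genes stood apart. Lrp1 was -0.04 with loess offsets, Acat2 was -0.08 with whole-library totals and Mbtps1 was 0.095 without Dyrk1b library 1.

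The liver label was met by 6 of 11 hepatocyte markers with a peak (Alb, Apoa1, Apob, Fga, Fgb and Hnf4a). Their 8 peaks summed to 341 to 353 CPM in Dyrk1b libraries and 318 to 464 CPM in controls, with 7 of 8 lower. Of 36 markers of other liver and blood cells 10 had a peak, and none of 5 cholangiocyte markers did. The 15 peaks of those 10 genes summed to 564 to 602 CPM in Dyrk1b libraries and 482 to 520 CPM in controls. Of these, 12 of 15 were higher and 0 past the threshold, while 49.55% of all tested peaks were lower. By cell type the sums were higher without overlap for sinusoidal endothelium (5 peaks of 3 genes), stellate cells (1 peak of 1 gene) and B cells (2 peaks of 2 genes). Single peaks stood apart in the higher direction in 9.53% of all tested peaks, so sums of so few peaks say little about a cell type. They overlapped for T cells, neutrophils and macrophages (162 to 185 CPM with Dyrk1b, 164 to 206 CPM in controls). The 11 cholesterol gene peaks summed to 413, 504 and 441 CPM in Dyrk1b libraries and 572, 502 and 554 CPM in controls. The part of these marker differences in the values above was not tested, and in bulk liver fewer cells of a type and less open chromatin per cell cannot be told apart.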

How the data were processed

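ATAC-seq was analysed in 6 mouse liver libraries, 3 per group. The authors deposited 1 table of 22412 peaks with raw read counts per peak and library and RPKM values, per the file headers. The RPKM values equal reads per kb of peak (end minus start) and of a library total, tested on the file. Per the file headers the authors' log2 ratio of mean RPKM, p-value and FDR are included, and which test they used is not stated. Peak names run to 30387, so the table may be a subset. Bowtie2, DiffBind, ChIPseeker and mm10 are listed in the submitters' processing notes. The peak caller, handling of duplicates and any read shift are not stated in those notes. Gene starts in the table differ from GRCm38 by a median of 133 kb, so coordinates are printed as deposited, for an unnamed build.

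Counts were fitted with edgeR 4.0.16 in R 4.3.3 (filterByExpr, which removed 361 peaks, TMM, quasi-likelihood test, no covariate), Benjamini-Hochberg adjusted over 22051 peaks, with a common biological coefficient of variation of 19.9%. SE is the log2 change divided by the root of the F statistic, and 95% intervals use the fit's degrees of freedom. CPM is TMM-scaled to reads in tested peaks. A promoter peak was classed so by the authors or lay within 3 kb of its gene's start, and the one with the most reads was taken per gene. The fit was tested on simulated counts. Alternatives used other scalings, no filter, limma 3.58.1, DESeq2 1.42.0, a replicate block and each library left out.

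Members, lists and tests were chosen with earlier results of these data known. Named were all peaks of the 8 genes, of Srebf1, Srebf2, Scap, Insig2 and Dyrk1b, the 6 other pathway genes with the lowest promoter p, of which 2 are not reported here, and the 5 promoters most like the mean profile, predicted genes left out. No shared deviation of same-numbered libraries was seen, and the fit did not pair them.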

Additional observations from a re-analysis of the deposited data

How the results depend on the processing

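Over 154 refits of the 11 cholesterol gene peaks 0 passed the threshold and 145 kept their sign. Scaled to the whole-library totals behind RPKM, chosen after seeing the data, the median of all peaks moved to 0.17 and Hmgcs1 and Msmo1 turned to 0.084 and 0.088. With 1 library left out, Hmgcs1 ran from -0.549 to 0.212, Fdft1 intron 3 from -0.718 to 0.017, Sqle from -0.14 to 0.509 and Msmo1 from -0.42 to 0.083. The promoter median of the 8 genes ran from -0.593 (without Dyrk1b library 2) to -0.197 (without control 1), and was -0.134 with whole-library totals. Among pathway controllers Insig2 turned to 0.024 with loess offsets and 0.05 with whole-library totals, and Scap at 10642 bases to -0.041 with loess. With 1 library left out Scap ran from -0.032 to 0.163 at its start and from -0.023 to 0.469 at 10642 bases, and Srebf1 at -387 bases from -0.416 to 0.023. The median of the 18 pathway promoters was 0.055 with loess (all promoters 0.01), 0.058 with whole-library totals (all promoters 0.097) and -0.155 to -0.066 with 1 library left out. Over all peaks 7 passed in the reported fit, 4 by library size only, 3 with loess, 1 with whole-library totals, 2 by limma-trend, 19 by DESeq2 (which left 16245 of 22051 peaks without an adjusted p) and 0 to 10 with 1 library left out (0 without Dyrk1b library 3, 1 without control 3, 3 without control 1 or control 2). The cause was not tested.

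Replicate numbers shared by the groups were tried as a block. Deviations of same-numbered libraries correlated at -0.00979, -0.0144 and 0.0073, so no shared deviation by number was seen. The labels do not say whether same-numbered libraries were handled together, and these values cannot tell. With the replicate block 7 peaks passed over all peaks, 0 of the 11 and 0 of the 18. The 11 peaks held 13 to 93 reads per library, with a median coefficient of variation of 22.4% observed and 15.8% from counting. The part of depth in the missed threshold was not tested. The smallest SE was 0.25 on the log2 scale, at Fdft1 exon 1.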
